A study of Homo sapiens with 18 samples.

Results

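The genes described here are 9 members of the bone morphogenetic protein (BMP) pathway in HEK293T cells: the ligands BMP2 and BMP7, the receptors BMPR1A and BMPR2, the signal transducers SMAD1 and SMAD5, and the target genes ID1, ID2 and ID3. They were picked by name from the 14177 genes of the deposited expression table, to ask whether the lower BMP2 level in cells edited at UBR7 was followed by the ID targets. BMP2 was picked because it was lower in UBR7KO than in parental RNA, so its values in that contrast are a description and carry no test. All 9 members were in the table and passed a filter on low values (above 1 CPM, reads per 1e06 reads of the library, in at least 3 libraries), as did 13697 genes in all.

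UBR7 is a protein that the series studies as a chaperone of histone H3, and HEK293T is a human embryonic kidney line. The study compared parental HEK293T with UBR7KO cells made with CRISPR-Cas9, grown in serum-containing medium with no added BMP named in the labels. RNA was sequenced from 3 parental libraries and from 3 UBR7KO libraries, of which 2 come from a line titled UBR7KO1 (KO1) and 1 from a line titled UBR7KO2 (KO2). Open chromatin was profiled by ATAC-seq in 2 parental and 2 UBR7KO libraries, and chromatin bound by GFP-UBR7, tagged at the endogenous gene, was profiled by ChIP-seq in 1 library with 1 input. These are 12 of the 18 samples, and the 6 CUT&RUN samples were not analysed here. Parental 1 and KO1-1 share a date code, and parental 2 and KO1-2 share another. Parental 3 and the KO2 library carry no date and formed the third pair, in which line and preparation cannot be told apart. How many clones each line comes from is not given in the sources used here, nor whether libraries came from separate cultures. The p-values therefore measure the spread between these libraries, which limma adjusts toward that of all genes.

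BMPs are secreted ligands that bring type I receptors such as BMPR1A together with type II receptors such as BMPR2. The activated type I receptor phosphorylates SMAD1 and SMAD5, which enter the nucleus with SMAD4 and switch on target genes, the ID genes among the best known. ID proteins lack a DNA-binding region and hold E proteins such as TCF3 away from DNA. ID genes also respond to serum and other signals, so their mRNA is a readout of BMP signalling but not of it alone.

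The RNA libraries held 22153291 to 29811908 reads, and 3 reads corresponded to 0.101 to 0.135 CPM. UBR7 was measured at 55.0, 62.2 and 62.2 CPM in parental 1, 2 and 3, at 27.0 and 26.3 CPM in KO1-1 and KO1-2, and at 64.5 CPM in the library labelled KO2. UBR7 mRNA was thus lower in both KO1 libraries and not in the library labelled KO2, and the change differed between the lines by 1.16 on the log2 scale (SE 0.22, adjusted p = 0.00176, limma). In this and every difference between lines below, the KO2 side is 1 library. The spread comes from the KO1 pairs and from all genes, and the KO2 pair is assumed to vary like them. All 8 HEK293T markers were in the table. Their differences between lines were -1.83 for KRT8, -1.51 for NES, -1.43 for NEFL and -1.26 for NEFM on the log2 scale. Those of the rest were -1.04 for VIM, -0.25 for PAX2, 0.00053 for KRT18 and 0.91 for CDH2. With the pair as a block, NES rose in the KO1 pairs by 1.19 (adjusted p = 4.44e-05, limma). VIM rose there by 0.56 (adjusted p = 0.0202, limma), and 2.23% of tested genes were called higher in that fit. Here and below, the blocked fit of the KO1 pairs leaves 1 residual degree of freedom, so its SE draws largely on all genes. The table listed 0 of 7 markers of mature kidney, 0 of 4 of keratinocytes and 0 of 4 of blood. It listed 3 of 5 fibroblast markers (not DCN or PDGFRB), summed to between 14.2 and 21.3 CPM in parental and between 7.35 and 15.0 CPM in UBR7KO libraries. COL1A1 was at 10.9, 12.6 and 11.02 CPM in parental 1, 2 and 3, at 9.58 and 7.38 CPM in KO1-1 and KO1-2, and at 5.97 CPM in the library labelled KO2. It was lower in all 3 pairs with groups that did not overlap, and was not called (limma adjusted p = 1 over all 6 libraries). Of tested genes, 11.5% were lower in all 3 pairs and 1.23% had every UBR7KO library below every parental library. The other 2 listed markers differed between lines, COL3A1 by -2.69 (adjusted p = 2.17e-05, limma) and LUM by -1.87 (adjusted p = 0.00254, limma). LUM also rose in the KO1 pairs with the pair as a block, by 0.85 (adjusted p = 0.0235, limma). The part of these markers in the results below was not tested.

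BMP2, a ligand known for bone formation and embryonic patterning (ENSG00000125845, chromosome 20, 6748311 to 6760927, plus strand), was lower in every UBR7KO library than in every parental library. It was at 7.48, 3.70 and 3.91 CPM in parental 1, 2 and 3, at 1.33 and 0.549 CPM in KO1-1 and KO1-2, and at 0.503 CPM in the library labelled KO2. These levels stand on 205, 82 and 114 reads in the parental libraries and 35, 14 and 15 reads in KO1-1, KO1-2 and the library labelled KO2, all well above 3 reads. The groups did not overlap, and the parental mean of 5.03 ± 2.12 CPM (SD, n = 3) stood beside 0.793 ± 0.462 CPM (SD, n = 3) in UBR7KO. Within pairs the UBR7KO level was 0.177 times the parental level in the first (95% counting interval 0.120 to 0.255), 0.148 in the second (0.0777 to 0.263) and 0.129 in the undated pair (0.0697 to 0.221). These intervals cover the reads of each library and not the spread between cultures, and are no test of a gene picked for its fall. The 3 intervals overlapped, and that of the undated pair comes from the library labelled KO2, in which UBR7 mRNA was not lower. Fitted over the 6 libraries the change was -1.73 on the log2(CPM + 1) scale, which understates low genes, and the authors' deposited table gives a log2 change of -2.68. Across all tested genes, 1.23% had every UBR7KO library below every parental library, and no reading is drawn from this for the gene chosen by it. The other genes within its 10 Mb stretch of chromosome 20 (59 tested genes) had median changes of 0.07, 0.02 and 0.04 on the log2 scale in the 3 pairs.

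BMP7, the other ligand (ENSG00000101144, chromosome 20, 55743804 to 55841685, minus strand), is widely expressed in kidney development. It was at 39.2, 40.4 and 44.3 CPM in parental 1, 2 and 3, at 44.3 and 41.0 CPM in KO1-1 and KO1-2, and at 48.1 CPM in the library labelled KO2. BMP7 lay higher in each UBR7KO library than in its own parental library, but the groups overlapped and the change of 0.10 on the log2 scale did not pass (limma adjusted p = 1). Under scaling by trimmed means or by median ratios, it was no longer higher in all 3 pairs. Per kb of exon, BMP7 was the more abundant of these ligands in parental cells, at 3.69 ± 0.238 CPM per kb (SD, n = 3) against 1.40 ± 0.589 for BMP2. In UBR7KO the level of BMP2 was 0.220 CPM per kb and that of BMP7 3.97 CPM per kb.

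**Figure D1:**
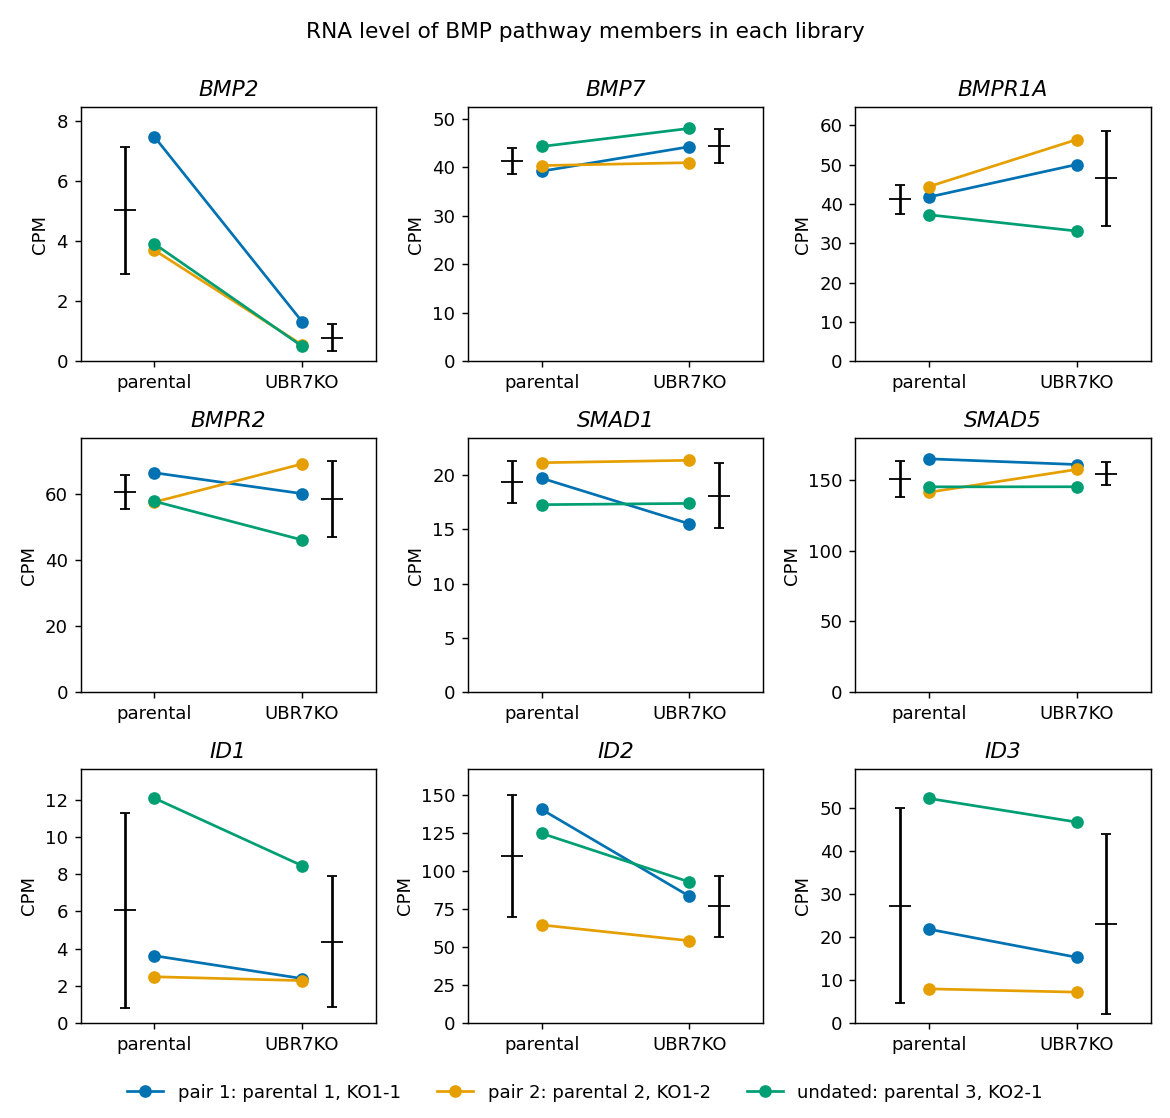
CPM of each of the 9 members, 1 panel each on a linear axis from 0, with 1 point per RNA library, lines joining the libraries of a pair, and black bars at the mean ± SD of each group (n = 3). BMP2 is the member whose groups do not overlap, and the ID1 and ID3 points spread widely within both groups, with parental 3 at 12.1 and 52.3 CPM.

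The receptors showed no called change. BMPR1A, a type I receptor (ENSG00000107779, chromosome 10, 88516407 to 88684945), was at 41.8, 44.4 and 37.2 CPM in parental 1, 2 and 3, at 50.0 and 56.3 CPM in KO1-1 and KO1-2, and at 33.1 CPM in the library labelled KO2. Both KO1 libraries were above all parental libraries and the library labelled KO2 was below them. The KO1 level was 1.198 times (95% counting interval 1.11 to 1.30) and 1.27 times (1.17 to 1.38) that of its pair, and the KO2 level was 0.889 times (0.815 to 0.970). The difference between lines, -0.46 on the log2 scale (SE 0.22), did not pass (limma adjusted p = 0.290), nor did the KO1 change with the pair as a block (adjusted p = 0.225). Genes in its 10 Mb stretch had median changes of 0.17 and 0.19 in the dated pairs and -0.02 in the undated pair.

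BMPR2, the type II receptor for BMPs (ENSG00000204217, chromosome 2, 203241659 to 203432474), was at 66.3, 57.4 and 57.6 CPM in parental 1, 2 and 3, at 60.0 and 68.9 CPM in KO1-1 and KO1-2, and at 46.0 CPM in the library labelled KO2. It was lower in 2 pairs and higher in 1, and the groups overlapped. The change over all libraries was -0.07 on the log2 scale (limma adjusted p = 1), and the difference between lines was -0.38 (limma adjusted p = 0.416).

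The signal transducers were close to level. SMAD1 (ENSG00000170365, chromosome 4, 146402346 to 146479231) was at 19.7, 21.1 and 17.3 CPM in parental 1, 2 and 3, at 15.5 and 21.3 CPM in KO1-1 and KO1-2, and at 17.4 CPM in the library labelled KO2. It was lower in KO1-1 than in its pair by 0.33 on the log2 scale and within 0.014 in the other pairs. SMAD5 (ENSG00000113658, chromosome 5, 135468534 to 135524435) was at 165, 141 and 145 CPM in parental 1, 2 and 3, at 161 and 158 CPM in KO1-1 and KO1-2, and at 145 CPM in the library labelled KO2. SMAD1 and SMAD5 were not called in any of the 3 RNA comparisons. Per kb of exon the parental level of SMAD5 was 5.56 CPM and that of SMAD1 1.24 CPM.

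The 3 ID genes were lower in UBR7KO in all 3 pairs, by less than BMP2 and, for each of the 3, by less than the range of the parental libraries. Without the pairing, none of the 3 passed in the comparison of all 6 libraries or in the 2 dated pairs (limma adjusted p = 1 for each). No tested gene passed in either, with 47 lower and 23 higher over all libraries and 102 lower and 116 higher in the dated pairs at an unadjusted p under 0.05. With the date pair as a block, ID2 passed in the KO1 pairs, and ID1 and ID3 did not. The sequences before their RefSeq starts are shown because the ID genes are among the best known targets of the pathway. These need not be the starts at which the chromatin data below were read. Those came from the authors' list for ID1 and ID2 and from the RNA table for ID3. Each sequence is the 250 bases before the RefSeq start in GRCh38.p14, another build than that of the table, 5′ to 3′ on the gene's strand. ID1 lies at chr20:31605039-31605288 (plus strand), ID2 at chr2:8681806-8682055 (plus strand) and ID3 at chr1:23559502-23559751 (minus strand). Capitals mark the bases that match one of 4 motifs searched on both strands. A TATA box was searched as the letters TATAAA, and a CCAAT box by the letters of its name. The elements that SMADs are known to bind were searched as GGCGCC (GC-rich) and, for the SMAD box, as the letters CAGAC. In ID1 the matches to TATAAA share letters.
ID1: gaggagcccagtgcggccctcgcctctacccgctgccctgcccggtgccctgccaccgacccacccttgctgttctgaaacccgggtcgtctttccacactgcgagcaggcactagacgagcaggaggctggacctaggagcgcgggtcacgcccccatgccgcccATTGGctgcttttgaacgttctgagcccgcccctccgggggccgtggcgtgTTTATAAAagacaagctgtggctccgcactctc
ID2: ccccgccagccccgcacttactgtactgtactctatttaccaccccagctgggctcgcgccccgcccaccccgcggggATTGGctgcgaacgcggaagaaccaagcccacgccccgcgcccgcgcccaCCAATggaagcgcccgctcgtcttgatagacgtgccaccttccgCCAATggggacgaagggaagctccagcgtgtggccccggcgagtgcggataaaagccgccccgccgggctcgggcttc
ID3: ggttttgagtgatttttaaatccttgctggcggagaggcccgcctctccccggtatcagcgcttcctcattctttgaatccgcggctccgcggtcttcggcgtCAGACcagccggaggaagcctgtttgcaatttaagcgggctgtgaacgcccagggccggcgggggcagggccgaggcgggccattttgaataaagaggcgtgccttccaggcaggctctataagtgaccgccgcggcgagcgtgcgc
ID1 held TATAAA on either strand, 33 and 31 bases before its start, and CCAAT 84 bases before it. ID2 held CCAAT at 172, 122 and 78 bases before its start, and ID3 held CAGAC at 147. No GGCGCC was found in these 3 windows, and bases farther from the starts were not searched. Among 35116 RefSeq windows of this length, 10.7% held TATAAA, 32% CCAAT, 16.4% GGCGCC and 38% CAGAC. A match describes letters and does not show a bound site. BMP2 and BMP7 had no entry among the 7 of 9 members matched.

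ID2 (ENSG00000115738, chromosome 2, 8818975 to 8824583) was the most abundant member per kb of exon, at 24.5 ± 8.93 CPM per kb in parental cells (SD, n = 3). It was at 140.7, 64.6 and 125 CPM in parental 1, 2 and 3, at 83.5 and 54.2 CPM in KO1-1 and KO1-2, and at 93.0 CPM in the library labelled KO2. The highest parental library was 2.18 times the lowest. The groups overlapped, because parental 2 was lower than 2 UBR7KO libraries, but each UBR7KO library was below its own pair. The ratios were 0.594 (95% counting interval 0.563 to 0.626), 0.839 (0.779 to 0.905) and 0.744 (0.708 to 0.782). Without the pair as a block the change in the dated pairs was -0.50 on the log2 scale and did not pass (limma adjusted p = 1). With the block ID2 fell by 0.50 (SE 0.13, adjusted p = 0.0336, limma), 1 of 186 genes called lower (1.36%) among 13697. That fit leaves 1 residual degree of freedom, so its SE draws largely on the spread of all genes and not of ID2 alone. Over all 3 pairs the blocked change was -0.47 (SE 0.12) and did not pass (limma adjusted p = 0.608), in a fit that called no gene. In that fit 282 genes were lower and 473 higher at an unadjusted p under 0.05, and DESeq2 called 6 genes lower and 1 higher, with no member among the 8. In the undated pair the 22 other tested genes in the first 10 Mb of chromosome 2 had a median change of -0.39, close to the -0.42 of ID2. In the dated pairs these neighbours had medians of -0.14 and 0.02, against -0.75 and -0.25 for ID2, and their part in the result was not tested.

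ID1 (ENSG00000125968, chromosome 20, 30193086 to 30194318) is widely used as a readout of BMP signalling. It was at 3.61, 2.48 and 12.1 CPM in parental 1, 2 and 3, at 2.39 and 2.28 CPM in KO1-1 and KO1-2, and at 8.45 CPM in the library labelled KO2. The undated pair stood well above the dated ones in both genotypes, and the groups overlapped. The highest parental library was 4.87 times the lowest, a range larger than that of 97.9% of tested genes. Within pairs the ratios were 0.661 (95% counting interval 0.474 to 0.916), 0.917 (0.623 to 1.35) and 0.700 (0.593 to 0.825). With the pair as a block, the change was -0.33 on the log2 scale over all pairs (SE 0.18, adjusted p = 0.882, limma) and -0.27 in the dated pairs (SE 0.21, adjusted p = 0.575, limma).

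ID3 (ENSG00000117318, chromosome 1, 23884409 to 23886285, minus strand) showed the same layout. It was at 21.8, 7.94 and 52.3 CPM in parental 1, 2 and 3, at 15.3 and 7.18 CPM in KO1-1 and KO1-2, and at 46.8 CPM in the library labelled KO2. The highest parental library was 6.59 times the lowest and the highest UBR7KO library 6.52 times the lowest. The ratios within pairs were 0.701 (95% counting interval 0.616 to 0.796), 0.904 (0.731 to 1.12) and 0.895 (0.832 to 0.963). With the pair as a block, the change was -0.26 over all pairs (SE 0.14, adjusted p = 0.882, limma) and -0.31 in the dated pairs (SE 0.17, adjusted p = 0.395, limma). Counting intervals cover the reads of each library and not the spread between cultures.

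**Figure D2:**
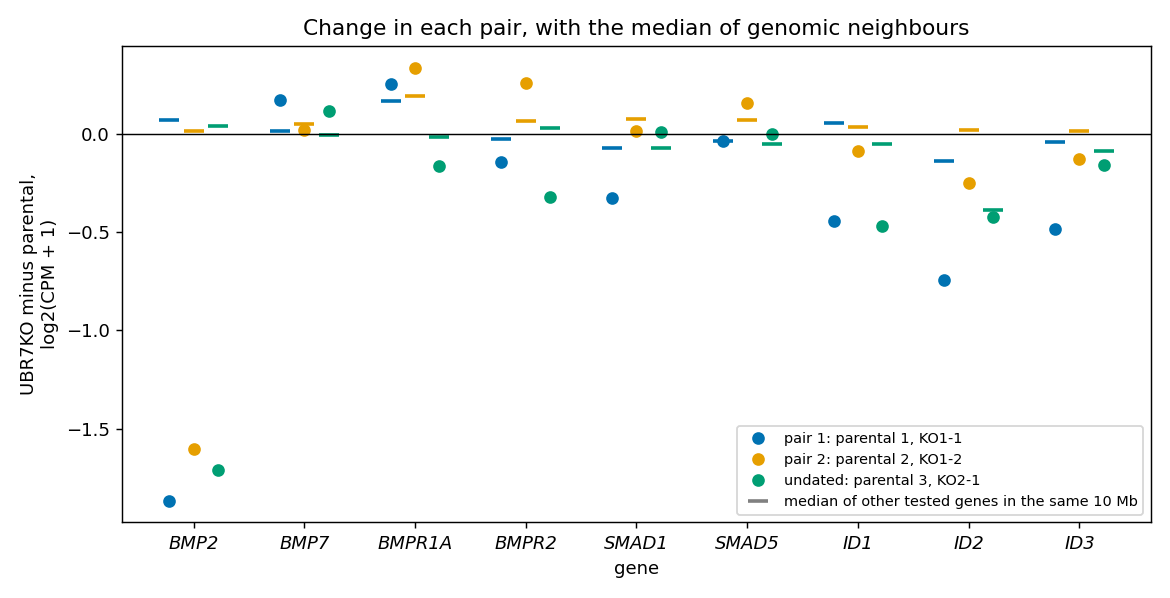
Difference of log2(CPM + 1), UBR7KO minus parental, for each member in each of the 3 pairs, with 1 point per pair and a short bar of the same colour at the median of the other tested genes in the same 10 Mb. BMP2 lies between -1.87 and -1.60, and ID1, ID2 and ID3 lie between -0.75 and -0.09, with the bar of ID2 in the undated pair at -0.39.

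Set side by side, BMP2 was lower by 1.60 to 1.87 on the log2 scale per pair and the 3 ID genes by 0.09 to 0.75. Among the 8 members other than BMP2, 3 were lower in all 3 pairs against 11.5% of tested genes, and 1 was higher in all 3 pairs against 15.5%. The 3 that were lower were the ID genes. The median change of the ID genes was -0.49, -0.13 and -0.42 in the 3 pairs, beside -0.0028, 0.07 and -0.02 for all tested genes. Each ID gene differed least in the second pair, at -0.09 for ID1, -0.25 for ID2 and -0.13 for ID3, and on this scale BMP2 also differed least there, at -1.60. As a ratio of CPM, BMP2 was lowest in the undated pair and highest in the first. A relation between BMP2 and the ID genes over the 3 pairs was not tested. In the difference between lines, 0 of the 8 members were called by limma (adjusted p from 0.290 to 0.983), against 5.03% of tested genes called in either direction. That comparison has 1 KO2 library and 1 residual degree of freedom. For ID1, ID2 and ID3 the differences between lines were -0.20, 0.07 and 0.15 on the log2 scale. In bulk RNA, fewer expressing cells and less RNA per cell cannot be told apart.

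Of 6 further BMP ligands in the table, 0 were called and 1 was higher in all pairs, against 15.5% of tested genes. BMP8B, the most expressed of them, was at 12.5, 9.39 and 4.80 CPM in parental 1, 2 and 3, at 14.3 and 10.7 CPM in KO1-1 and KO1-2, and at 7.82 CPM in the library labelled KO2. Its near-identical copy BMP8A was not listed, so BMP8B is uncertain. Of 6 other receptors and co-receptors, 1 was lower and 2 were higher in all pairs, against 11.5% and 15.5% of tested genes. ACVR2B, a type II receptor shared with activins, rose in the dated pairs with the block by 0.63 on the log2 scale (SE 0.14, adjusted p = 0.0144, limma), and was not called without it (adjusted p = 1). With the block, 2.23% of tested genes were called higher in these pairs. It was at 21.0, 17.0 and 12.6 CPM in parental 1, 2 and 3, at 34.6 and 25.6 CPM in KO1-1 and KO1-2, and at 17.4 CPM in the library labelled KO2, so the groups overlapped. RGMB, a co-receptor for BMPs and the most expressed gene of the list, had a mean of 34.9 ± 10.95 CPM in parental and 29.4 ± 4.77 CPM in UBR7KO libraries (SD, n = 3 each) and was not called.

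Of 8 other SMADs and SMAD regulators, 1 was lower and 3 were higher in all pairs, against 11.5% and 15.5% of tested genes. SMURF2, a ubiquitin ligase that acts on SMADs and receptors, was called in the difference between lines, at -0.82 on the log2 scale (SE 0.23, adjusted p = 0.0344, limma), where 3.32% of tested genes were called lower and 1.71% higher. Its 53 neighbours had a median change of -0.34 in the undated pair, beside -0.58 for SMURF2, and their part was not tested. The inhibitory SMADs, SMAD6 and SMAD7, are feedback targets of the pathway and are named here after their values were seen. SMAD6 was at 8.68, 7.72 and 14.5 CPM in parental 1, 2 and 3, at 8.83 and 8.36 CPM in KO1-1 and KO1-2, and at 16.3 CPM in the library labelled KO2. SMAD7 was at 8.02, 7.85 and 10.1 CPM in parental 1, 2 and 3, at 8.98 and 9.22 CPM in KO1-1 and KO1-2, and at 14.6 CPM in the library labelled KO2. Both had higher CPM in each UBR7KO library than in its pair, as did 15.5% of tested genes, and neither was called (limma adjusted p = 1 over all 6 libraries). The ratios of SMAD6 were 1.02 (95% counting interval 0.845 to 1.22), 1.083 (0.881 to 1.33) and 1.12 (0.984 to 1.28), each with an interval that includes 1. Those of SMAD7 were 1.12 (0.927 to 1.35), 1.17 (0.961 to 1.44) and 1.45 (1.24 to 1.68), with 1 outside the interval in the undated pair.

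Of 12 other BMP targets, 2 were lower and 2 were higher in all 3 pairs, against 11.5% and 15.5% of tested genes, and none was called. The 2 that were lower were HEY1 and ID4. The 2 that were higher were SMAD6 and SMAD7, which are also counted among the SMADs above. HEY1, a transcriptional repressor that also responds to Notch, was at 259, 177 and 223 CPM in parental 1, 2 and 3, at 183 and 140 CPM in KO1-1 and KO1-2, and at 185 CPM in the library labelled KO2. Its change in the dated pairs with the block was -0.42 (SE 0.12, adjusted p = 0.0516, limma), above the threshold of 0.05. ID4, the fourth gene of the ID family, was at 79.6, 86.2 and 55.9 CPM in parental 1, 2 and 3, at 60.2 and 67.6 CPM in KO1-1 and KO1-2, and at 54.8 CPM in the library labelled KO2. Its blocked change in the dated pairs was -0.37 (SE 0.12, adjusted p = 0.0868, limma), and the undated pair was level, at 0.981 times parental (95% counting interval 0.915 to 1.05). ID4 is named after its values were seen.

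Of 7 tested secreted antagonists, 1 was lower in all pairs, against 11.5% of tested genes, and none was called. TWSG1, which binds BMPs outside the cell and was the most expressed, had a mean of 42.5 ± 2.47 CPM in parental and 47.8 ± 6.15 CPM in UBR7KO libraries (SD, n = 3 each). Of the 3 E proteins that ID proteins bind, TCF3 was higher in all pairs, at 81.3 ± 14.4 CPM in parental and 91.2 ± 17.1 CPM in UBR7KO libraries (SD, n = 3 each), and none was called. Of 17 genes of the TGF-beta and activin branch, 1 was lower and 3 were higher in all pairs, against 11.5% and 15.5% of tested genes. TGFBR2, the type II receptor for TGF-beta, was at 9.34, 8.49 and 12.3 CPM in parental 1, 2 and 3, at 14.9 and 16.9 CPM in KO1-1 and KO1-2, and at 4.49 CPM in the library labelled KO2. It rose in the KO1 pairs with the block by 0.77 (SE 0.17, adjusted p = 0.0132 by limma and 1 without the block) and differed between lines by -2.04 (SE 0.31, adjusted p = 9.13e-05, limma), with 1 KO2 library behind the last value. LTBP1, which holds latent TGF-beta in the matrix, also differed between lines, by -0.996 (SE 0.23, adjusted p = 0.01, limma), and its 39 neighbours had a median change of -0.48 in the undated pair. TGFBR1, the most expressed gene of this branch, had a mean of 78.4 ± 13.9 CPM in parental and 85.3 ± 17.5 CPM in UBR7KO libraries (SD, n = 3 each).

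**Figure D3:**
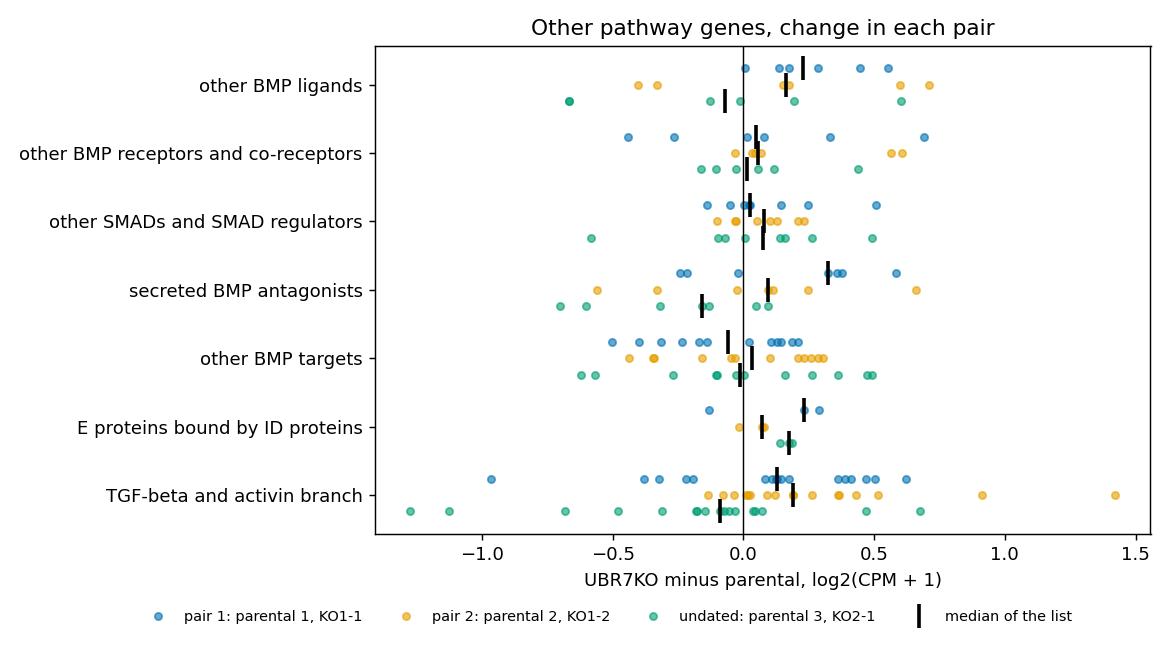
Difference of log2(CPM + 1), UBR7KO minus parental, in each of the 3 pairs for the genes of 7 other pathway lists, with 1 point per gene and pair and a vertical bar at each list's median. Points of each list lie on both sides of 0 in at least 1 pair, and TGFBR2 lies at 0.62 and 0.91 in the dated pairs and -1.27 in the undated pair.

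By the mean absolute difference of centred log2(CPM + 1) over the 6 libraries, SNX19 (0.113), SFRP1 (0.284) and FZD10 (0.376) had the profiles most like that of BMP2. SNX19, a sorting nexin, was at 6.60, 3.43 and 3.16 CPM in parental 1, 2 and 3, at 1.14 and 0.745 CPM in KO1-1 and KO1-2, and at 0.537 CPM in the library labelled KO2. SFRP1, a secreted Wnt antagonist, was at 2.13 to 2.75 CPM in parental and 0.0392 to 0.189 CPM in UBR7KO libraries. These UBR7KO values are near the floor, and the lowest, in KO1-2, is below 3 reads (0.118 CPM there). FZD10, a Wnt receptor, was at 3.74 to 5.15 CPM in parental and 0.604 to 2.69 CPM in UBR7KO libraries. The genes most like ID1 were DHX37 (0.111), NOL6 (0.127) and DPH2 (0.128), and in each of them, as in ID1, both libraries of the undated pair were above the 4 dated ones. These likenesses include what the libraries of a pair share and, for BMP2, the lower UBR7KO level for which it was picked.

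The chromatin data were read within 1 kb of each start. The authors called ATAC-seq peaks separately for every library, and the −log10 q given here is their value for a peak. There were 10507 and 38529 peaks in parental 1 and 2 and 15310 and 45920 in UBR7KO 1 and 2, so presence moves with how much was called. Of all tested genes, 60.3% and 85.9% had a peak at the start in the parental and 76.4% and 88.3% in the UBR7KO libraries. In the deposited lists, between 33.65% and 63.48% of the peaks had a listed value that stands for a q above 0.05. How the listed value of a broad peak relates to the threshold used to call it was not examined. The labels' descriptions of the UBR7KO ATAC libraries share a code with the KO2 RNA library, so the line is taken from that code.

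At BMP2 a peak was listed in UBR7KO 2, with a −log10 q of 1.64, and in none of the other 3 libraries. At BMP7 peaks were listed in UBR7KO 1 and 2, at 1.23 and 8.36, and in neither parental library. BMPR1A, BMPR2, SMAD1 and ID2 had a peak in all 4 libraries, 4 of 9 members against 57.6% of tested genes. Members with a peak in both libraries of a genotype numbered 4 in parental, against 59.7% of tested genes, and 7 in UBR7KO, against 75.9%. BMPR2 was at 0.845 and 1.33 in parental 1 and 2 and at 2.93 and 3.33 in UBR7KO 1 and 2, in lists whose medians also differ. How many other gene starts show this order was not counted, so no reading is drawn from it. ID2 was at 0.900 and 2.00 in parental 1 and 2 and at 1.84 and 3.33 in UBR7KO 1 and 2. ID1 had no peak in parental 1, was at 3.46 in parental 2, and was at 2.79 and 1.82 in UBR7KO 1 and 2. ID3 had a peak within 1 kb in UBR7KO 2, at 1.199, and within 5 kb also in parental 2, at 5.54, and in UBR7KO 1, at 3.91. The 1 ID start with a peak in both parental libraries, that of ID2, also had one in both UBR7KO libraries. No test was made of these values, since the peaks were called library by library.

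**Figure D4:**
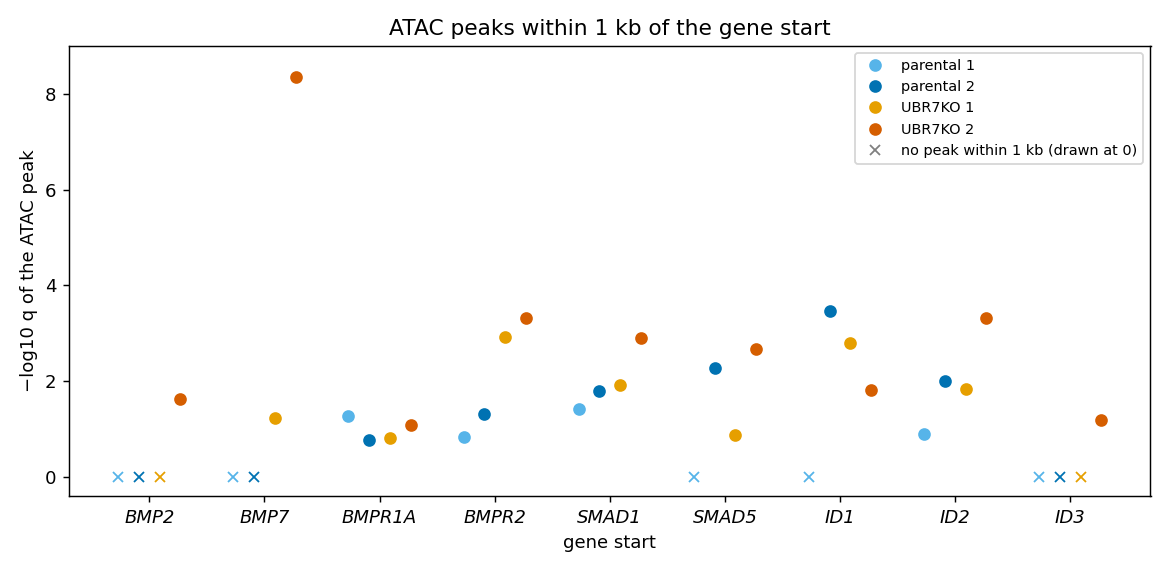
The −log10 q of the ATAC-seq peak within 1 kb of each member's start in the 2 parental and 2 UBR7KO libraries, with 1 point per library and a cross at 0 where no peak was listed. BMPR1A, BMPR2, SMAD1 and ID2 have points in all 4 libraries, and the highest point is BMP7 at 8.36 in UBR7KO 2.

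GFP-UBR7 peaks, 5895 in 1 library, lay within 1 kb of the start of 26.9% of tested genes and of 3 of the 9 members. The peak at SMAD5 covered the start, that at BMPR1A lay 271 bp from it and that at ID1 lay 387 bp upstream (chromosome 20, 30192541 to 30192699, in the coordinates of the peak list). The nearest peak to BMP2 was 1157 kb away. Those nearest to ID2 and ID3 were 321 and 28.6 kb away, and those nearest to BMP7, BMPR2 and SMAD1 were between 259 and 1039 kb away. With 1 library this placement has no replicate check.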

How the data were processed

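RNA, ATAC and GFP-UBR7 ChIP values came from files the authors deposited. The RNA table gives CPM per library, which the authors made per 1e06 reads of the library. Every CPM value was a whole multiple of the value of 1 read (tolerance 1e-06), 100% of values in each library, so reads could be recovered, in parental 1 from the spacing of values since its lowest value was 9 reads. The table's log2 fold change, likelihood ratio score, p-value and adjusted p-value columns are deposited results of the authors. The deposited peak lists give −log10 q (ATAC) and a score (GFP-UBR7 and merged ATAC peaks). Per the submitters' processing notes, tools include TopHat2 2.1.0, HTSeq 0.6.1, edgeR, Bowtie2 2.3.1 and MACS2, and builds include hg19 and hg38, with no role stated. Coordinates are printed as in the files, whose member positions differ from those of GRCh38.p14. Whether counting used strand is not given in the sources used here. RefSeq annotates antisense RNAs at BMP7, SMAD1 and SMAD5 and beside ID2, and pseudogene copies of BMPR1A, so reads from these cannot be told apart from the members'.

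Here log2(CPM + 1) was tested with limma 3.58.1 (trend, robust, two-sided, Benjamini-Hochberg over 13697 genes, threshold 0.05) without a block, except for the difference between lines, which used the pair. Of the 3 pairs, 2 come from shared date codes, and the libraries with no date form the third. Deviations from group means correlated at 0.758, 0.736 and 0.633 within pairs and at -0.443 to -0.251 across them. So the fit with the pair as a block is also printed for the ID genes, for genes whose call it changed (BMP2 and UBR7 aside) and for some others. Ratios within pairs carry exact 95% intervals from the reads (Clopper-Pearson). Start sites came from the authors' gene start list for 7 members and from the RNA table for BMP2 and ID3. Alternatives were edgeR 4.0.16, DESeq2 1.42.0, other scalings, filters and pseudocounts, and leaving out each library. The limma fits without a block, and that of the difference between lines, were run on simulated data with no pair effect. The other blocked fits were not.

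The members and the pathway lists were chosen with earlier results of these data known, and p-values were adjusted over all tested genes. The text names UBR7, all members, each list's called genes or else its most expressed one, and the 3 genes most like BMP2 and ID1. SMAD6, SMAD7 and ID4 are added exceptions. The 6 CUT&RUN samples were not analysed here.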

Additional observations from a re-analysis of the deposited data

Results flagged for a closer look

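BMPR1A moved one way in both KO1 pairs and the other way in the KO2 pair. It was higher in KO1-1 and KO1-2 than in their parental libraries, by 0.25 and 0.34 on the log2(CPM + 1) scale, and lower in the library labelled KO2 than in parental 3, with a change of -0.165. The difference between the lines, -0.46 (SE 0.22), did not pass when tested (limma adjusted p = 0.290), and it rests on 1 KO2 library.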

How the results depend on the processing

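In the comparison of all 6 libraries the change of BMP2 stayed between -2.72 and -1.45 on the log2 scale under 15 alternatives. The ID genes stayed lower in all 3 pairs (3 of 8 members) with a pseudocount of 0.1 and under TMM and RLE scaling. They were lower in both dated pairs alone, as were 24.4% of tested genes. The count of members higher in every pair went from 1 to 0 under TMM and to 0 under RLE scaling, and to 2 in the dated pairs alone. Over all 6 libraries 0 genes were called either way by limma, 1 higher and 3 lower with the replicate block and TMM scaling, and 1 higher and 6 lower by DESeq2. In the dated pairs, 0 were called without the block and 305 higher and 186 lower with the replicate block, ID2 being the 1 member. With the block and TMM scaling the counts were 241 and 234 (1 member), by edgeR's quasi-likelihood test with the block 238 and 244 (1 member), and by DESeq2 without it 4 and 20. Leaving out each library gave 0 to 0 calls over all 6 libraries, and 0 to 8 higher and 1 to 18 lower in the dated pairs, with 0 to 0 members. In the difference between lines, RLE scaling gave 353 higher, and the fit with no replicate block 0 higher and 3 lower. The cause of these shifts was not tested.

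Leaving out 1 library without the block leaves its pair incomplete, and it reversed small changes, for which the cause was not tested. Over all libraries BMPR1A ranged from -0.011 (without KO1-2) to 0.364 (without the library labelled KO2) and BMPR2 from -0.196 (without KO1-2) to 0.091 (without the library labelled KO2). SMAD5 ranged from -0.0033 (without parental 2) to 0.107 (without parental 1), ID1 from -0.836 (without the library labelled KO2) to 0.235 (without parental 3), and ID3 from -0.941 (without the library labelled KO2) to 0.376 (without parental 3), with 0.333 without KO1-2. In the dated pairs BMPR2 ranged from -0.043 (without parental 2) to 0.161 (without parental 1), with -0.040 without KO1-2, SMAD1 from -0.375 (without KO1-2) to 0.062 (without KO1-1), and SMAD5 from -0.051 (without parental 2) to 0.170 (without parental 1). ID2 ranged from -1.05 (without parental 2) to 0.059 (without parental 1) and ID3 from -0.984 (without parental 2) to 0.369 (without parental 1), with 0.190 without KO1-2. In the difference between lines BMP2 became -0.254 (pseudocount 0.1), -0.017 (TMM), -0.013 (RLE), -0.337 (no replicate block) and -0.320 (edgeR), and without the block SMAD1 became -0.063 and ID1 1.505.

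Members with an ATAC peak in both libraries numbered 4 in parental and 7 in UBR7KO, 0 and 0 for peaks with a −log10 q of at least 5. Leaving out 1 library gave 4 to 6 in parental and 7 to 9 in UBR7KO. GFP-UBR7 peaks at members numbered 3 within 1 kb or 5 kb, and 2 among peaks above the median score. BMP2 rests on 14 to 205 reads a library and its highest parental library was 2.02 times the lowest, and both limit how precisely its change is known.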
